A study of Homo sapiens with 28 samples.

Results

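Histone genes were followed in the polyadenylated RNA of MDA-MB-453, an established line of human breast cancer cells, after 3 h of treatment with bromodomain inhibitors. The members were all genes whose symbol carries a current or older histone name, which gave 41 of the 16482 genes in the table of all reads. Of these, 32 were also among the 13029 genes in the table of T>C reads, which carry the base change that 4-thiouridine leaves in RNA made during labelling. How many T>C reads arise without label is not known here. Of the 41 genes, 30 encode histones of the replication-dependent type (4 linker H1 genes, 7 H2A, 9 H2B, 6 H3 and 4 H4) and 11 encode variants (2 H1, 6 H2A and 3 H3). Chromosome 6 carries 20 of them and chromosome 1 another 10. Genes were tested in a fraction where 2 or more of its libraries reached a normalised value of 10, or of 5 for T>C reads. This left 32 histone genes in the cytoplasm and 35 in the nucleus for all reads, and 21 and 32 for T>C reads. H1-3, H1-4, H1-5, H2BC1, H2BC13 and H3C13 passed in none of the 4 tables.

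The cells received JQ1, JQ1-VHL, IBET151, IBET151-VHL or DMSO, the solvent, and were split into nuclear and cytoplasmic fractions with digitonin. JQ1 and IBET151 occupy the acetyl-lysine pocket of the BET bromodomain proteins, and a VHL conjugate of such an inhibitor brings its target to the VHL ubiquitin ligase. All groups, DMSO included, had 0.1 mM 4-thiouridine for the last 60 min, and 10% Drosophila S2 cells were mixed in before fractionation. Each of the 10 groups held 3 libraries, apart from IBET151 with 2 per fraction, 28 in all. Doses were not given in the sources used here. The labels do not say whether replicates were separate cultures, so the p-values measure the spread between these libraries, which may be technical.

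Replication-dependent histone genes lie in clusters and are transcribed mainly while DNA is copied. Their main mRNA ends just after a conserved stem-loop, which the stem-loop binding protein SLBP holds, and carries no poly(A) tail. Most variant histone genes stand alone, are expressed throughout the cell cycle and give polyadenylated mRNA. The libraries were made with a 3′ mRNA kit from polyadenylated RNA, so of the replication-dependent genes they read polyadenylated transcripts only, which are known as the minor form in cycling cells. Values are per mass of RNA, because the authors scaled them to ERCC standards that were added per amount of RNA. In bulk RNA, fewer cells expressing a gene and less RNA per cell cannot be told apart.

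Libraries held 17851589 to 38658448 reads in the nucleus and 30647584 to 68475299 in the cytoplasm. Reads with T>C changes were 1.10 to 8.02% of the nuclear libraries and 0.235 to 0.818% of the cytoplasmic ones. One read was worth 0.670 to 2.24 normalised units in the nucleus and 0.374 to 0.951 in the cytoplasm. The nuclear DMSO libraries differed in their T>C share (8.02, 6.34 and 2.25%). Luminal breast markers fitted the label: all 9 were expressed in DMSO cytoplasm, from 4410 units for ERBB2 to 45838 for GATA3. Of 7 measured markers of other cells, COL1A1 stood at 1620 units there and CD68 at 31.3, and the other 5 (COL1A2, VIM, PTPRC, KRT5 and KRT14) at most at 3.64.

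Annotated transcripts were searched for the stem-loop. The letters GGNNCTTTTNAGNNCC were found, on the transcript strand, in annotated transcripts of 16 members (GENCODE 29, GRCh38), 15 of the replication-dependent type and the variant H2AX. The loop began 22 to 67 bases after the stop codon. In 11 of the 16, an annotated transcript ran at least 100 bases past the loop, and in 7 at least 1000 bases. The sites of 7 members that the results turn on are shown with the stem-loop letters in capitals, since a transcript that ends just after them lacks the poly(A) tail that these libraries select for.
H2BC18: caaaGGCTCTTTTCAGAGCCactt
H2BC21: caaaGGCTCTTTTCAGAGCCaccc
H2BC4: caaaGGCTCTTTTAAGAGCCaccc
H2BC5: caaaGGCTCTTTTAAGAGCCacgc
H2AC6: caaaGGCTCTTTTCAGAGCCcccc
H4C8: caaaGGCCCTTTTCAGGGCCgccc
H3C14: aaaaGGCTCTTTTCAGAGCCaccc

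These 7 sites lie at chr1:149811881-149811904 (minus strand) for H2BC18, chr1:149886184-149886207 (minus) for H2BC21, chr6:26123468-26123491 (minus) for H2BC4, chr6:26158583-26158606 (plus) for H2BC5, chr6:26124665-26124688 (plus) for H2AC6, chr6:26285127-26285150 (minus) for H4C8 and chr1:149840688-149840711 (minus) for H3C14, all in the 3′ untranslated part of the annotated transcript. The annotated transcript with the loop went on for 1479 bases past it in H2BC18, 1729 in H2BC21 and 1114 in H2AC6. The transcript with the loop ended 116 bases past it in H2BC4 and 39 in H2BC5, and the longer of the H4C8 transcripts went on for 630. H2BC4 and H2BC5 also have an annotated coding transcript without these letters, with 272 and 384 bases after the stop codon. Both of those hold a poly(A) signal (AATAAA or ATTAAA) near their end. H2BC18 and H2AC6 have an annotated coding transcript without the loop letters too. No match was found in annotated transcripts of H1-2, H2BC12, H3C12 or H3C4, which says only that these letters are not in those transcripts. The annotated coding transcripts of these genes end at the stop codon, with 0 bases after it. A loop past the stop codon could not be found in them, so the search does not show whether these genes have it.

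In nuclear T>C reads, the replication-dependent histone genes together took a larger share of the signal under all 4 compounds than in DMSO. Their summed T>C signal took 11410 ± 3980 ppm of the nuclear T>C total under JQ1-VHL (SD, n = 3), 18930 ± 5960 under IBET151-VHL (n = 3), 2873 ± 122 under JQ1 (n = 3) and 3806 ± 841 under IBET151 (n = 2). In DMSO nuclei it took 696 ± 71.9 ppm (n = 3). Every library of the 4 compounds lay above all DMSO libraries, which stood at 616, 756 and 716. The variants also took a larger share under all 4 compounds. They took 9506 ± 3530 ppm under JQ1, 11870 ± 3040 under JQ1-VHL, 11040 ± 3510 under IBET151 and 18230 ± 4010 under IBET151-VHL. In DMSO nuclei the variants took 4265 ± 1800 ppm, and here too every compound library lay above all DMSO libraries (2365, 4487 and 5944). A share of the total rises when other genes fall, so single genes were tested on the deposited scale.

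**Figure D1:**
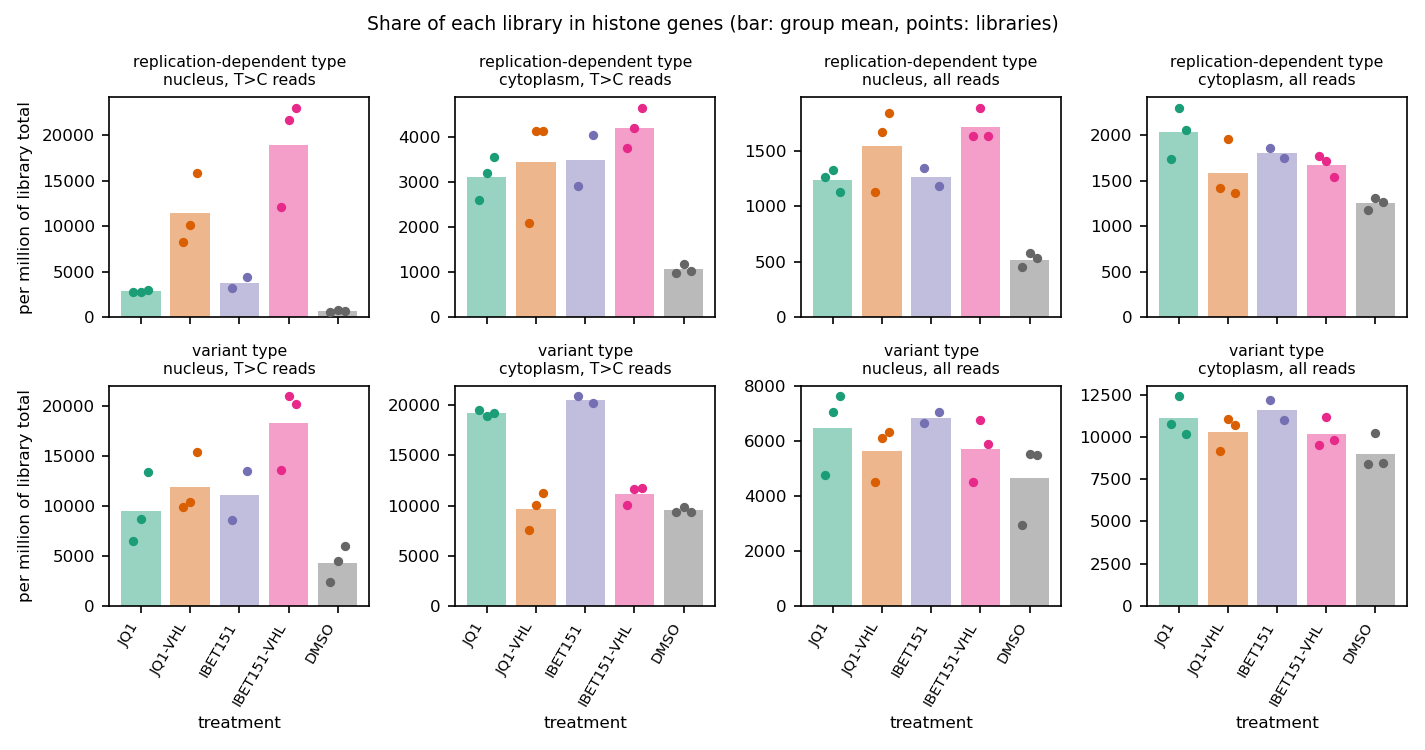
Share of each library taken by the 30 replication-dependent histone genes (upper row) and the 11 variant genes (lower row), in ppm of the library's summed normalised values, for T>C and all reads of nucleus and cytoplasm. Bars are group means and points are libraries, and in nuclear T>C reads the replication-dependent genes averaged 11410 under JQ1-VHL and 18930 under IBET151-VHL, against 696 in DMSO. In the same reads the variants averaged 11870 under JQ1-VHL and 18230 under IBET151-VHL, against 4265 in DMSO.

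On that scale, 15 of the 32 tested histone genes rose in nuclear T>C reads under JQ1-VHL (46.9%), against 1.28% of all 12059 genes tested, and 1 fell (3.12%), against 60.5% of all genes (limma, Benjamini-Hochberg adjusted p under 0.05 over all genes). Under IBET151-VHL 14 rose (43.8%), against 1.09% of all genes, and 4 fell (12.5%), against 83.9%. Under IBET151 6 rose (18.8%), against 0.315%, and under JQ1 2 rose (6.25%), against 0.124%, and none fell in either, at 0.987% of all genes under IBET151 and 2.29% under JQ1. All genes that rose were of the replication-dependent type, of which 21 were tested, and all that fell were variants. The median log2 change of the replication-dependent genes was 1.59 under JQ1, 2.07 under JQ1-VHL, 2.31 under IBET151 and 1.86 under IBET151-VHL, while that of all genes was −0.67, −1.92, −0.07 and −3.12. For the 11 variants it was 0.51, −0.47, 1.28 and −0.75. The 4 comparisons share the DMSO libraries.

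**Figure D2:**
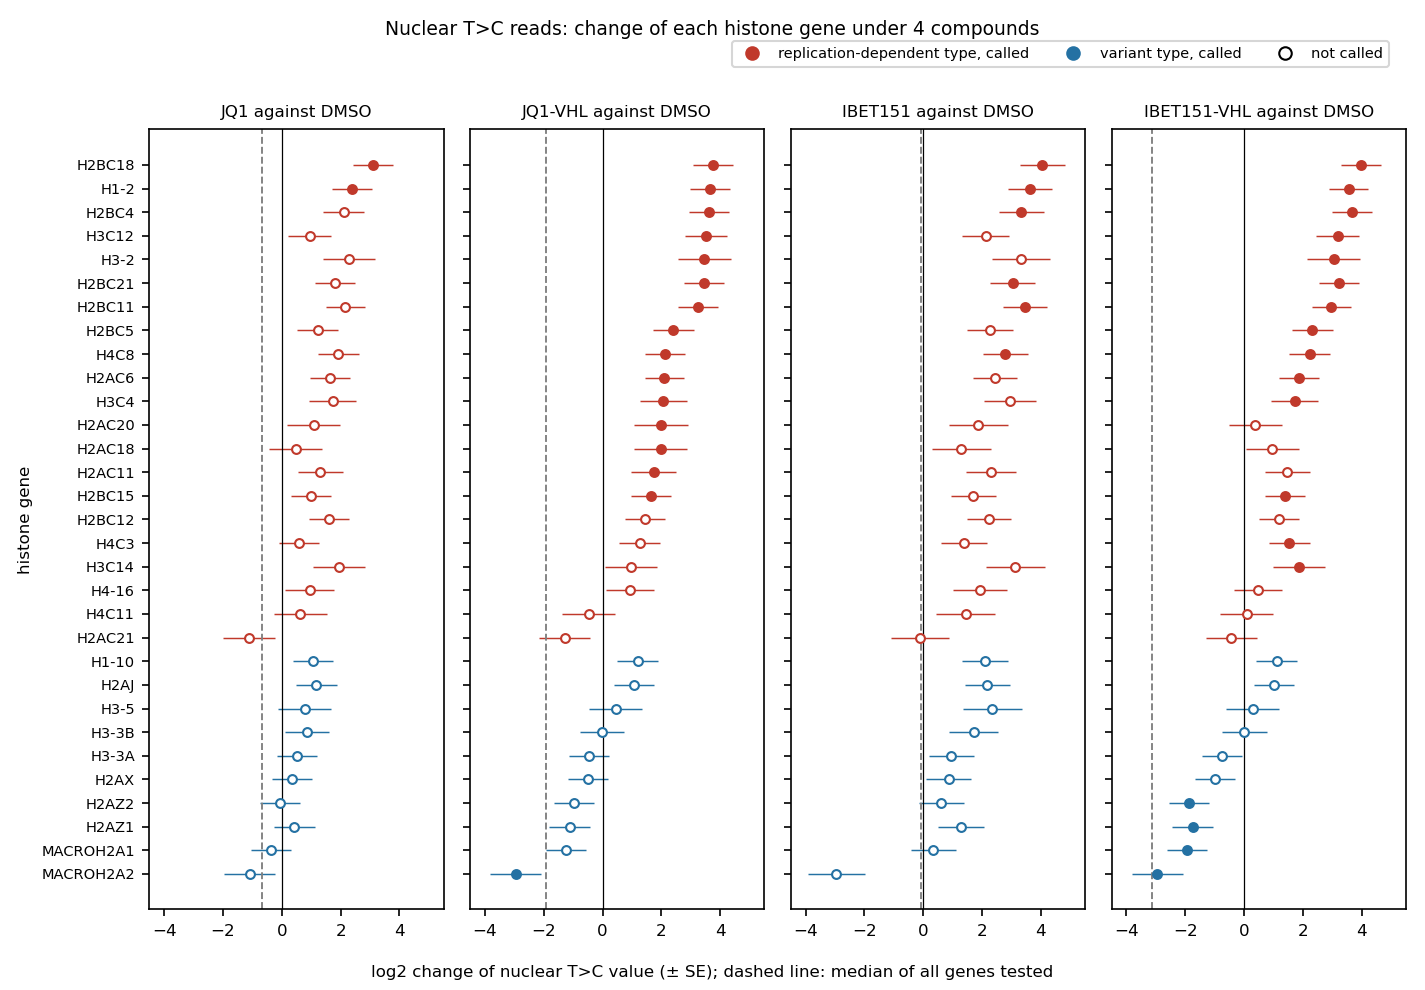
Log2 change of the nuclear T>C value (horizontal axis, ± SE) of 31 of the 32 tested histone genes under each compound against DMSO, with replication-dependent genes above variants and filled points for genes past the threshold. The dashed line is the median of all genes tested, −1.92 under JQ1-VHL and −3.12 under IBET151-VHL, and most replication-dependent genes lie right of 0 in every panel.

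H2BC18, a gene for core histone H2B on chromosome 1, had the largest nuclear T>C change of any histone gene under each of the 4 compounds. Its T>C values were 260.2, 470.2 and 284 units under JQ1, 174, 665 and 1206 under JQ1-VHL, 554 and 723 under IBET151, and 336, 784 and 835 under IBET151-VHL, against 35.2, 63.7 and 23.0 in DMSO nuclei. No library of a compound overlapped DMSO. The log2 change was 3.10 (SE 0.676, adjusted p = 0.00106, limma) under JQ1, 3.76 (adjusted p = 2.73e-06) under JQ1-VHL, 4.05 (adjusted p = 9.3e-05) under IBET151 and 3.98 (adjusted p = 3.17e-08) under IBET151-VHL. In fold this is 8.55, 13.6, 16.5 and 15.8. H2BC18 kept its call under all 17 alternative settings tried for JQ1, JQ1-VHL and IBET151-VHL and all 16 for IBET151. The gene overlaps an annotated locus on the same strand and FCGR1A on the other, and the strand setting of the authors' counting was not given in the sources used here. In GENCODE 29, H1-10, H2AC7, H2AC21, H2AZ1, H2BC5, H2BC15, H3-2, H3-3A, H3-3B, H3C4, H3C12, H3C14, H3C15, MACROH2A1 and MACROH2A2 also overlap other loci, on the same or the other strand, with which reads may be shared.

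Other H2B genes moved with it. H2BC4 had T>C values of 105, 243 and 72.2 units under JQ1, 80.4, 574 and 962 under JQ1-VHL, 300.1 and 279 under IBET151, and 135, 495 and 728 under IBET151-VHL, against 32.5, 56.6 and 11.5 in DMSO nuclei. Every compound library was above every DMSO library. The change on the log2 scale was 3.62 (SE 0.685, adjusted p = 8.03e-06) under JQ1-VHL, 3.67 (adjusted p = 4.4e-07) under IBET151-VHL and 3.33 (adjusted p = 0.00431) under IBET151. Under JQ1 it was 2.10 (adjusted p = 0.07, and 0.0137 with the replicate number as a block).

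H2BC21 stood at 188, 658 and 367 units under JQ1, 251, 1478 and 3781 under JQ1-VHL, 558 and 1254 under IBET151, and 298, 1541 and 1939 under IBET151-VHL, against 67.7, 165 and 91.9 in DMSO nuclei. Every compound library was above all 3 DMSO libraries. The log2 change was 3.46 under JQ1-VHL (adjusted p = 1.43e-05), 3.24 under IBET151-VHL (5.4e-06) and 3.04 under IBET151 (0.0105), and 1.81 under JQ1 (0.144, and 0.0224 with the block). H2BC11 changed by 3.24 under JQ1-VHL, 2.97 under IBET151-VHL and 3.45 under IBET151, all past the threshold. H2BC5, whose T>C values reached 674 to 4252 under JQ1-VHL and 769 to 3880 under IBET151-VHL, against 304 to 587 in DMSO nuclei, changed by 2.41 and 2.33. Of the H2B genes tested, H2BC12 did not pass under any compound in the nucleus (log2 change 1.43 under JQ1-VHL, adjusted p = 0.0535).

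H1-2 was the only replication-dependent linker histone gene that was tested. Linker histones bind the DNA between nucleosomes. Its T>C values were 132, 201 and 419 units under JQ1, 156, 390.2 and 2470 under JQ1-VHL, 328 and 854 under IBET151, and 166, 631 and 1196 under IBET151-VHL, against 12.1, 54.8 and 105 in DMSO nuclei. All compound libraries were above all DMSO libraries, with the highest value in the last library of JQ1-VHL. The change on the log2 scale was 2.39 under JQ1 (SE 0.677, adjusted p = 0.0233), 3.65 under JQ1-VHL (adjusted p = 5.44e-06), 3.64 under IBET151 (adjusted p = 0.000772) and 3.56 under IBET151-VHL (adjusted p = 6.79e-07).

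**Figure D3:**
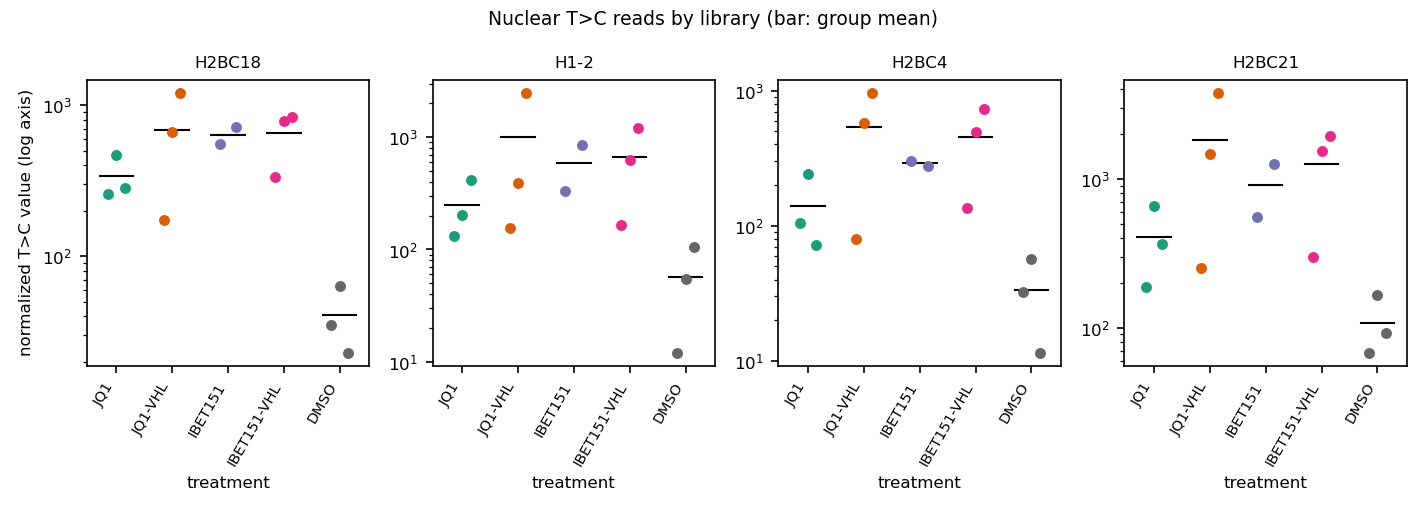
Nuclear T>C value of H2BC18, H1-2, H2BC4 and H2BC21 in each library (points, log axis) with group means (bars), compounds left of DMSO. In each of the 4 genes all libraries of the compounds lie above the 3 DMSO libraries, for H2BC18 at 174 to 1206 units against 23.0 to 63.7.

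Among H3 genes, H3C12 rose under both VHL compounds. Its T>C values were 18.3, 82.8 and 32.1 units under JQ1, 59.6, 362 and 504 under JQ1-VHL, 98.7 and 71.7 under IBET151, and 69.1, 348 and 231 under IBET151-VHL, against 15.8, 30.1 and 13.4 in DMSO nuclei. JQ1 overlapped DMSO and the others did not. The log2 change was 3.51 (adjusted p = 3.3e-05) under JQ1-VHL and 3.19 (adjusted p = 2.48e-05) under IBET151-VHL, and 0.95 (adjusted p = 0.559) under JQ1. H3-2 rose by 3.46 and 3.05 under the same compounds from few reads, with 8.04 to 44.4 units under JQ1-VHL and 11.2 to 46.7 under IBET151-VHL, against 0 to 3.71 in DMSO nuclei. No DMSO library reached the minimum of 5 units, so H3-2 entered the test only through compound libraries. H3C4 rose by 2.07 under JQ1-VHL and 1.72 under IBET151-VHL, with overlap between groups. H3C14 was at 0 in all 3 DMSO nuclei, so it entered the test only through compound libraries. It had 2, 1 and 6 reads under JQ1, 0, 0 and 3 under JQ1-VHL, 3 and 5 under IBET151, and 0, 3 and 3 under IBET151-VHL. Its mean was 2.67 times a floor of 3 reads over the DMSO group under JQ1, 5.2 times under IBET151 and 2.58 times under IBET151-VHL. These ratios leave out the counting error of the compound groups. Under JQ1-VHL the 3 reads of H3C14 only equal that floor, so no ratio is given. H3C14 and H3C15 are near-identical copies, and reads may be split between them.

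Of the H4 genes, H4C8 rose by 2.12 under JQ1-VHL, 2.23 under IBET151-VHL and 2.79 under IBET151, and H4C3 rose under IBET151-VHL (1.55, adjusted p = 0.0303). Of the H2A genes, H2AC6 rose by 2.10 and 1.87 under JQ1-VHL and IBET151-VHL. H2AC11, H2AC18 and H2AC20 rose under JQ1-VHL (1.75, 1.98 and 1.98). Their log2 changes under IBET151-VHL did not pass, and the differences between compounds were not tested. H2AC18 had only 7, 6 and 21 reads under JQ1-VHL, against 0, 3 and 4 in DMSO nuclei. H2AC20 had 8, 9 and 13, against 1, 5 and 1, and DMSO libraries alone would not have brought it into the test. Under JQ1-VHL the libraries of H4C8, H2AC6, H2AC18 and H2AC20 overlapped DMSO, as did those of H4C3 under IBET151-VHL.

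No variant gene passed the test as higher in nuclear T>C reads. MACROH2A2, a macroH2A linked with silent chromatin, was at 0 in all JQ1-VHL, IBET151 and IBET151-VHL nuclei and at 1.53, 3.50 and 3.21 units under JQ1, against 8.35, 15.9 and 1.92 units in DMSO nuclei. Its DMSO mean was 5.47 times the floor of 3 reads over the JQ1-VHL group, 2.91 times that of IBET151 and 5.52 times that of IBET151-VHL. It passed the test under the VHL compounds. MACROH2A2 reached the minimum of 5 units only in DMSO libraries, from 9, 9 and 1 reads there. Its calls and these ratios are therefore not independent of how it entered the test. MACROH2A1 had 45.6, 199 and 218 units under JQ1-VHL and 65.2, 76.1 and 94.0 under IBET151-VHL, against 256, 465 and 226 in DMSO nuclei. Both VHL compounds lay below DMSO, and MACROH2A1 fell under IBET151-VHL by 1.94 on the log2 scale. H2AZ1 and H2AZ2, genes for H2A.Z, a variant found at promoters, fell under IBET151-VHL by 1.74 and 1.86. These falls are smaller than the median of all genes there (−3.12), and scaled to the median gene MACROH2A1, H2AZ1 and H2AZ2 changed by 1.06, 1.26 and 1.13. H3-3B, which encodes the replacement histone H3.3, changed by −0.02 under JQ1-VHL and 0.02 under IBET151-VHL.

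Under JQ1-VHL and IBET151-VHL alike, 8 genes were called in every one of 17 alternative settings: H1-2, H2BC4, H2BC5, H2BC11, H2BC18, H2BC21, H3-2 and H3C12. Of these, H3-2 entered the test only through compound libraries. Calls depended on single libraries elsewhere. Under JQ1-VHL the count of genes called, in either direction, was 10 without replicate 1 of DMSO or replicate 3 of JQ1-VHL, and under IBET151 it was 3 without replicate 1 of DMSO, 2 without replicate 1 of IBET151 and 1 without its replicate 2. Under JQ1 it was 1 without replicate 1 or 2 of DMSO or replicate 3 of JQ1, and 6 with the replicate block. In nuclear T>C reads limma put nearly the same spread on all genes of a level, so a gene's SE mostly reflects its level.

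The VHL compounds were also set against their parent inhibitors, which differ by the VHL ligand. In nuclear T>C reads, 1 of 32 histone genes rose under JQ1-VHL relative to JQ1, H3C12 (log2 difference 2.57, SE 0.721, 95% interval 1.15 to 3.98, adjusted p = 0.0105), against 0.332% of all genes. Its libraries overlapped between these groups, and the call was lost without replicate 1 of JQ1 or replicate 3 of JQ1-VHL. Under IBET151-VHL relative to IBET151 none rose, against 0.299% of all genes, and 6 variants fell (H2AX, H2AZ1, H2AZ2, H3-3A, H3-5 and MACROH2A1), against 81.4% of all genes. H3-5 had only 3 and 7 reads under IBET151, and 0, 1 and 2 under IBET151-VHL. No IBET151-VHL or DMSO library of H3-5 reached the minimum of 5 units. Its call is therefore not independent of how it entered the test. With the lowest counts, 2 were called without replicate 1 of IBET151 and 3 without its replicate 2 or without replicate 1 of IBET151-VHL. For H2BC18 the log2 difference was 0.67 (95% interval −0.66 to 1.99) between JQ1-VHL and JQ1 and −0.07 (−1.55 to 1.41) between IBET151-VHL and IBET151, so that differences of either direction remain within these intervals. H2BC21 differed by 1.64 (0.32 to 2.97, adjusted p = 0.077) and 0.20 (−1.28 to 1.69).

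In all nuclear reads fewer calls were made. Of 35 histone genes tested, 2 rose under JQ1-VHL (5.71%), against 0.902% of all 14417 genes, 2 under IBET151 (5.71%), against 0.0902%, and 3 under IBET151-VHL (8.57%), against 0.888%. None fell under any compound, at 1.07%, 0.00694% and 3.66% of all genes. None was called by limma under JQ1, where 0.0208% of all genes rose and 0.0486% fell, while 7 histone genes had an unadjusted p under 0.05 and edgeR and DESeq2 on the recovered reads called 1 each. With the replicate number as a block the counts were 13 under JQ1, 15 under JQ1-VHL and 17 under IBET151-VHL, of which 16 rose. For the VHL compounds, replicate 3 lies in another run of library numbers than replicate 3 of DMSO and JQ1. The median log2 change was 0.81 under JQ1, 0.69 under JQ1-VHL, 1.43 under IBET151 and 0.82 under IBET151-VHL, against −0.43, −0.48, 0.05 and −0.71 over all genes.

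H2BC18 again led. It had 1896, 4001 and 2288 units under JQ1, 1604, 5465 and 7271 under JQ1-VHL, 4868 and 4147 under IBET151, and 3208, 7608 and 5222 under IBET151-VHL, against 288, 465 and 249 in DMSO nuclei. No compound library overlapped DMSO. The change on the log2 scale was 3.00 under JQ1 (adjusted p = 0.0775, and 1.28e-18 with the block), 3.63 under JQ1-VHL (0.00144), 3.80 under IBET151 (0.0319) and 3.96 under IBET151-VHL (0.000211). H3C12 had 585, 1438 and 597 units under JQ1, 818, 5740 and 4909 under JQ1-VHL, 2018 and 1039 under IBET151, and 1307, 4915 and 3088 under IBET151-VHL, against 333, 775 and 356 in DMSO nuclei. It rose by 2.65 under JQ1-VHL (adjusted p = 0.0404) and 2.58 under IBET151-VHL (0.0276), with every library of both above DMSO.

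H2BC4 had 303, 904 and 985 units in JQ1 nuclei, 251, 1684 and 2261 in JQ1-VHL nuclei, 838 and 995 in IBET151 nuclei, and 468, 1585 and 1905 in IBET151-VHL nuclei, against 125, 246 and 343 in DMSO nuclei. It rose under IBET151-VHL (2.35, adjusted p = 0.0439), where the groups did not overlap. H3C14 was listed at 0 in all DMSO nuclei and passed under IBET151, from 8 and 20 reads. There its mean was 18.2 times the floor of 3 reads over the DMSO group. H3C14 entered the test only through compound libraries. Only H2BC18 kept its call under every setting, and only for the VHL compounds. Under JQ1-VHL 1 gene was called without replicate 1 or 2 of DMSO or replicate 2 or 3 of JQ1-VHL, and 4 without its replicate 1. Under IBET151 none was called without either of its libraries, and 1 without replicate 1 or 2 of DMSO. Under IBET151-VHL it was 1 without replicate 1 of DMSO or replicate 2 or 3 of IBET151-VHL, and 7 without its replicate 1.

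The share of T>C reads among all reads of a gene was then compared between groups, as a measure of how much of its RNA carried label. Over the replication-dependent genes it was 10.7 ± 4.94% under JQ1, 16.3 ± 3.82% under JQ1-VHL, 13.4 ± 0.21% under IBET151 and 14.5 ± 1.51% under IBET151-VHL, against 7.43 ± 4.03% in DMSO nuclei (SD, n = 3, and n = 2 for IBET151). Over the variants it was 6.47, 4.68, 7.06 and 4.35%, against 4.67% in DMSO nuclei. For H2BC18 the share was 12.6 ± 1.00, 13.2 ± 3.00, 14.4 ± 4.28 and 12.3 ± 3.24%, against 11.7 ± 2.27% in DMSO nuclei, and its T>C and total values rose alike. For H1-2 it was 4.30 ± 2.13, 10.9 ± 6.42, 7.31 ± 0.666 and 9.76 ± 1.53%, against 1.45 ± 0.173% in DMSO nuclei. These shares are descriptions and were not tested. In DMSO nuclei the replication-dependent share was 10.96, 8.28 and 3.04%, lowest in replicate 3, which had 2.25% T>C reads over all genes. Of the other nuclei, only JQ1 replicate 3 (5.17%) lies in its run of library numbers. The size of the differences from DMSO under the VHL compounds and IBET151 thus cannot be told apart from the run. In the runs of DMSO replicates 1 and 2, every compound library had a higher replication-dependent share than DMSO.

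In the cytoplasm over all reads, the parent inhibitors gave more calls than the VHL compounds on the deposited scale. After median-ratio scaling both VHL compounds gave more calls than on this scale. Under JQ1 9 of 32 histone genes rose (28.1%), against 0.818% of all 12470 genes tested, and none fell, against 4.00%. Under IBET151 6 rose (18.8%), against 0.898%, and none fell, against 1.62%. Under JQ1-VHL and IBET151-VHL 2 each rose (6.25%), against 0.417% and 0.465%, and none fell, against 12.5% and 15.4%. The median log2 change of the histone genes was 0.70 under JQ1, 0.30 under JQ1-VHL, 0.65 under IBET151 and 0.30 under IBET151-VHL, against −0.13, −0.17, 0.00 and −0.16 over all genes.

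H3C4 and H2BC18 rose under all 4 compounds. H3C4, a histone H3 gene, had 269, 216 and 194 units under JQ1, 95.9, 124 and 109.9 under JQ1-VHL, 165 and 209 under IBET151, and 124, 88.2 and 113 under IBET151-VHL, against 75.7, 62.5 and 53.8 in DMSO cytoplasm. All compound libraries were above DMSO, and those of the parents above those of the VHL compounds. The change on the log2 scale was 1.81 (SE 0.227, adjusted p = 0.000584) under JQ1, 0.78 (0.035) under JQ1-VHL, 1.53 (0.00496) under IBET151 and 0.75 (0.0344) under IBET151-VHL.

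H2BC18 had 639, 434 and 234 units under JQ1, 236, 303 and 368 under JQ1-VHL, 538 and 500.2 under IBET151, and 408, 382 and 214 under IBET151-VHL, against 89.4, 115 and 37.3 in DMSO cytoplasm. All compound libraries were above DMSO. The log2 change was 2.45 (SE 0.411, adjusted p = 0.0032) under JQ1, 2.02 (0.00431) under JQ1-VHL, 2.82 (0.0045) under IBET151 and 2.13 (0.00188) under IBET151-VHL.

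H2BC21 had 1666, 1703 and 1936 units under JQ1, 854, 1201 and 1272 under JQ1-VHL, 1591 and 1731 under IBET151, and 925.4, 1119 and 1205 under IBET151-VHL, against 517, 814 and 804 in DMSO cytoplasm. It rose by 1.34 under JQ1 (adjusted p = 0.00191) and 1.25 under IBET151 (0.00837). Under the VHL compounds its libraries were also above DMSO, with changes of 0.65 (0.00791 with the block) under JQ1-VHL and 0.63 under IBET151-VHL, which passed with the block too.

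**Figure D4:**
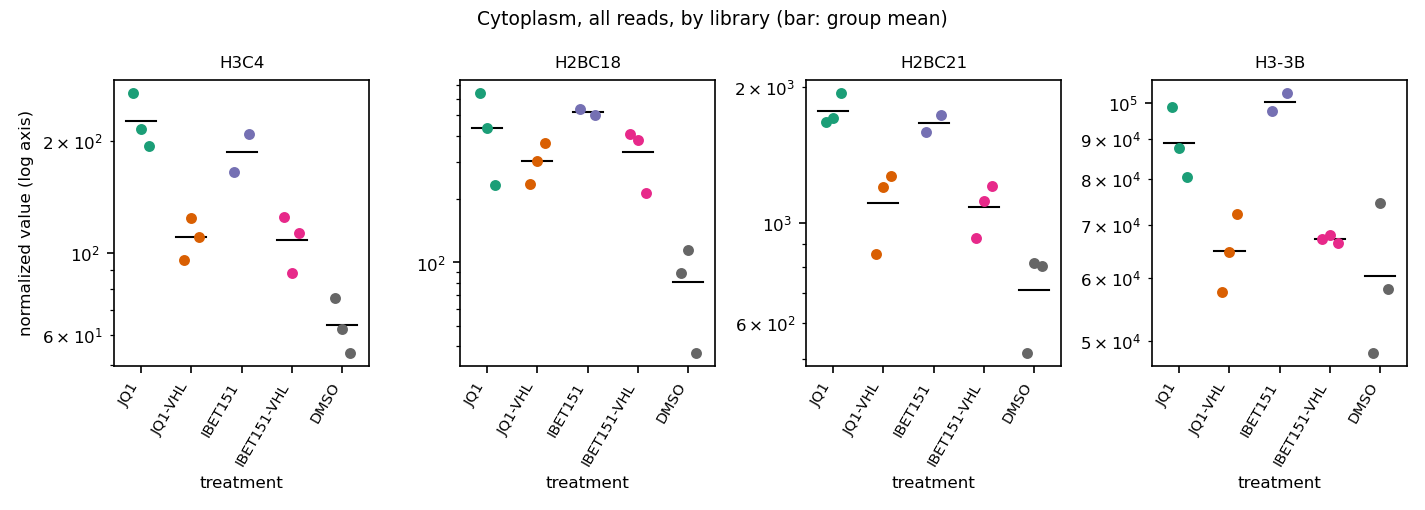
Cytoplasmic value of H3C4, H2BC18, H2BC21 and H3-3B over all reads in each library (points, log axis) with group means (bars), compounds left of DMSO. For H3C4 the JQ1 libraries lie at 194 to 269 units and the JQ1-VHL libraries at 95.9 to 124, against 53.8 to 75.7 in DMSO.

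Among the other genes called, H2BC4 had 611, 526 and 662 units under JQ1, 269, 419 and 299 under JQ1-VHL, 495 and 523 under IBET151, and 311, 380.3 and 337 under IBET151-VHL, against 94.99, 336 and 244 in DMSO cytoplasm. It rose under JQ1 (1.58, SE 0.342, adjusted p = 0.0151), the only compound of the 4 that passed. H2BC12, another H2B gene, had 17007, 19150 and 21620 units under JQ1, 12720, 15925 and 15032 under JQ1-VHL, 18916 and 21893 under IBET151, and 14514, 17310 and 17835 under IBET151-VHL, against 9271, 13011 and 13656 in DMSO cytoplasm. It rose by 0.70 under JQ1 and 0.78 under IBET151, without overlap.

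H2BC5 had 4786, 4522 and 4433 units under JQ1, 3249, 3601 and 3276 under JQ1-VHL, 4769 and 4670 under IBET151, and 3579, 4223 and 3554 under IBET151-VHL, against 1328, 3424 and 2825 in DMSO cytoplasm. It rose under JQ1 (0.97, adjusted p = 0.0391). H2AC6 had 2065, 1912 and 2392 units under JQ1, 1179, 1553 and 1434 under JQ1-VHL, 1930 and 2270 under IBET151, and 1219, 1354 and 1490 under IBET151-VHL, against 560.3, 1262 and 1220 in DMSO cytoplasm. It rose by 1.15 under JQ1 and 1.14 under IBET151. For H2BC4, H2BC5 and H2AC6 replicate 1 was the lowest of the DMSO libraries by a wide margin.

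The linker gene H1-2 had 9090, 7674 and 9438 units under JQ1, 6164, 5831 and 7709 under JQ1-VHL, 7512 and 9736 under IBET151, and 7250, 6298 and 7800 under IBET151-VHL, against 4335, 5706 and 5590 in DMSO cytoplasm. All compound libraries were above DMSO, and H1-2 rose under JQ1 (0.75, adjusted p = 0.0171) and, with the block, under IBET151-VHL (0.45). H3-3B was the only variant called. It had 98732, 87705 and 80572 units under JQ1, 57573, 64749 and 72422 under JQ1-VHL, 97670 and 102870 under IBET151, and 67268, 67990 and 66544 under IBET151-VHL, against 48289, 74588 and 58187 in DMSO cytoplasm. It rose by 0.58 under JQ1 (adjusted p = 0.0327) and 0.75 under IBET151 (0.0223), where the groups did not overlap.

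Of the other variants with high DMSO means in the cytoplasm, H2AZ1, H3-3A and H2AZ2 did not pass under any compound. H2AZ1 had 69994, 70480 and 51551 units under JQ1, 55536, 68488 and 75277 under JQ1-VHL, 76819 and 77188 under IBET151, and 58999, 68159 and 62858 under IBET151-VHL, against 51690, 74699 and 49200 in DMSO cytoplasm. The IBET151 libraries lay above the others and DMSO overlapped the other 3 groups. H3-3A, the second H3.3 gene, had 44715, 48108 and 39139 units under JQ1, 35646, 45947 and 41020 under JQ1-VHL, 48948 and 48566 under IBET151, and 45856, 44457 and 39023 under IBET151-VHL, against 45376, 49259 and 35724 in DMSO cytoplasm, so that DMSO spanned nearly all of them.

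H2AZ2 averaged 25515 ± 5289 units under JQ1, 28041 ± 4729 under JQ1-VHL, 31327 ± 2289 under IBET151 and 27844 ± 3598 under IBET151-VHL, against 24805 ± 6952 in DMSO cytoplasm (SD, n = 3, and n = 2 for IBET151), with overlap in all of them.

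H2BC18, H2BC21 and H3C4 kept their calls under all 16 settings tried for JQ1, and H2BC18 did so for both VHL compounds. None of the 6 calls under IBET151 held in all 15 settings: none was made without replicate 2 of IBET151, 1 without its replicate 1, 3 without replicate 1 of DMSO, and 12 without replicate 2 of DMSO. Under JQ1 3 were made without replicate 3 of JQ1 and 14 without replicate 2 of DMSO. With the replicate block 13 genes were called under JQ1, 3 under JQ1-VHL and 5 under IBET151-VHL. For the VHL compounds 1 gene was called without replicate 2 or 3 of JQ1-VHL, or without replicate 1 or 3 of IBET151-VHL, and 4 under IBET151-VHL without replicate 2 of DMSO.

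Set against the parents in the cytoplasm, H3C4 fell under JQ1-VHL relative to JQ1 (log2 difference −1.03, 95% interval −1.52 to −0.55, adjusted p = 0.0161), the only such gene of 32 (3.12%), against 4.18% of all genes, and none rose, against 0.0481%. It passed when replicate 2 of JQ1-VHL or replicate 3 of JQ1 was left out and not when any of the other 4 libraries was. With the block 5 fell, H3C4 with H2BC21 (−0.69), H2AC11 (−0.89), H2BC12 (−0.40) and H4C8 (−0.88). H3-3B fell under IBET151-VHL relative to IBET151 (−0.58, 95% interval −0.92 to −0.23, adjusted p = 0.0407), 3.12% of the histone genes against 7.87% of all genes, with none that rose, against 0.0321%. It did not pass once any 1 library was left out. Both shares are near or below those of all genes. In all nuclear reads none of 35 histone genes differed from the parent by limma, edgeR or DESeq2, under JQ1-VHL (0.132% of all genes rose and 0.166% fell by limma) or IBET151-VHL (0.0347% and 0.506%), and 2 and 1 had an unadjusted p under 0.05. With the replicate number as a block, 2 rose under JQ1-VHL relative to JQ1, H3C12 (1.84, adjusted p = 1.15e-06) and H3-2 (1.46, adjusted p = 0.0214). The block also gave 20 calls for IBET151-VHL against IBET151 and 15 for JQ1 against IBET151, where replicate numbers do not pair the libraries. No histone gene differed between JQ1-VHL and IBET151-VHL or between JQ1 and IBET151 by limma without a block, edgeR or DESeq2, in either fraction, where at most 0.0160% of all genes did. In the cytoplasm none of the 32 had an unadjusted p under 0.05 in these comparisons. In the nucleus 1 of 35 had between the VHL compounds and none between JQ1 and IBET151.

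In cytoplasmic T>C reads the calls differed by type of gene. Under JQ1 6 of 21 rose (28.6%), against 0.492% of all 6300 genes tested, and under IBET151 5 rose (23.8%), against 0.524%. None fell, against 20.1% and 6.76%. Under JQ1-VHL 1 rose, against 0.190%, and 9 fell (42.9%), against 82.8%, and under IBET151-VHL 2 rose, against 0.159%, and 9 fell (42.9%), against 88.3%. Of the 9 variants tested, 8 fell under JQ1-VHL (88.9%) and all 9 under IBET151-VHL (100%). These shares are near the 82.8% and 88.3% of all genes and are no result about variants. Of the 12 replication-dependent genes tested, 1 fell under JQ1-VHL (8.33%) and 0 under IBET151-VHL. The replication-dependent genes had a median log2 change of 1.42 under JQ1, −0.01 under JQ1-VHL, 1.89 under IBET151 and 0.29 under IBET151-VHL, while for all genes it was −0.97, −2.42, −0.60 and −2.90. The median of all genes shows how far the scale of the values matters here, so both scales are given.

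H3-3B had 1874, 1653 and 1652 cytoplasmic T>C units under JQ1, 344, 505 and 585 under JQ1-VHL, 2100 and 2427 under IBET151, and 484, 596 and 569 under IBET151-VHL, against 1032, 1138 and 1057 in DMSO cytoplasm. No group overlapped DMSO. H3-3B rose by 0.68 under JQ1 and 1.07 under IBET151 and fell by 1.20 under JQ1-VHL and by 0.97 under IBET151-VHL.

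H1-2 went the other way. It had 22.1, 35.7 and 41.9 T>C units under JQ1, 12.7, 19.9 and 75.0 under JQ1-VHL, 25.7 and 149 under IBET151, and 20.8, 16.4 and 72.8 under IBET151-VHL, against 4.03, 7.60 and 16.0 in DMSO cytoplasm. It was the only histone gene that rose under all 4, by 1.88, 1.63, 2.81 and 1.75, from few reads, and the JQ1-VHL libraries overlapped DMSO. H2BC12 had 147, 163 and 192 units under JQ1, 33.5, 81.5 and 85.4 under JQ1-VHL, 143 and 280 under IBET151, and 76.0, 111 and 77.0 under IBET151-VHL, against 71.6, 44.7 and 63.1 in DMSO cytoplasm. It rose under JQ1 (1.49) and IBET151 (1.75), while it changed by 0.07 under JQ1-VHL and 0.55 under IBET151-VHL.

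Scaled to the median gene instead, most variants changed sign. Under JQ1-VHL H3-3B then changed by 1.02, H2AZ2 by 1.10, H2AZ1 by 0.17 and H3-3A by 0.56. Under IBET151-VHL H3-3B changed by 2.02, H2AZ2 by 0.98, H2AZ1 by 0.69 and H3-3A by 1.17. On the deposited scale 7 of the 9 variants under JQ1-VHL, and all 9 under IBET151-VHL, lay above the median of all genes, while H2AJ (−2.62) lay below it under JQ1-VHL. As a share of the cytoplasmic T>C total, the replication-dependent genes took 3115, 3452, 3483 and 4200 ppm under the 4 compounds, in the order given above, against 1066 ± 110 in DMSO. The variants took 19240 under JQ1, 9635 under JQ1-VHL, 20540 under IBET151 and 11130 under IBET151-VHL, against 9530 ± 320 in DMSO. Under IBET151 none of the 5 calls was made without its replicate 2, and 2 were without replicate 1 of DMSO. Under JQ1 1 was made without replicate 1 of JQ1 or replicate 2 of DMSO, 2 without replicate 3 of JQ1 or replicate 1 of DMSO, and 3 without replicate 2 of JQ1.

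**Figure D5:**
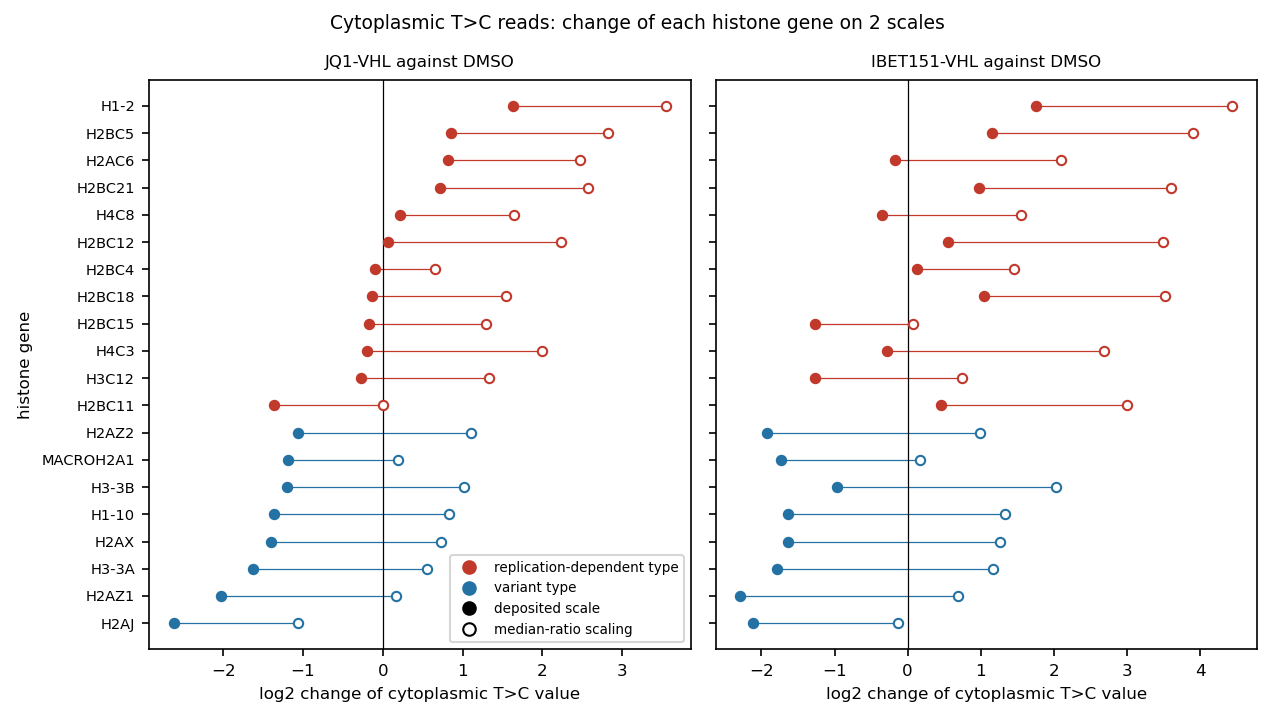
Log2 change of the cytoplasmic T>C value of 20 of the 21 tested histone genes under JQ1-VHL and IBET151-VHL against DMSO, on the deposited scale (filled) and after median-ratio scaling (open), with replication-dependent genes above variants. Under JQ1-VHL H3-3B lies at −1.20 on the deposited scale and at 1.02 after scaling, and under IBET151-VHL at −0.97 and 2.02.

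Relative to their parents, 11 histone genes fell in cytoplasmic T>C reads under each VHL compound (52.4% of 21), against 46.5% of all genes under JQ1-VHL and 69.1% under IBET151-VHL, shares near or below the background. After median-ratio scaling, 1 was called under JQ1-VHL and 3 under IBET151-VHL. None rose, against 0.127% and 0.0476% of all genes. Without replicate 2 of IBET151, 7 fell relative to IBET151 on the deposited scale.

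In DMSO cells, the histone genes were compared between nucleus and cytoplasm. Of 35 genes tested, 6 were higher in the nucleus than in the cytoplasm (17.1%), against 47.9% of all 14458 genes, and 1 was lower (2.86%), against 0.539%. The median log2 difference was 0.00 for the histone genes and 1.26 for all genes. H4-16 (3.04), H2BC15 (2.54), H2BC18 (2.13), H3-2 (1.72), H3C12 (1.44) and H3C4 (1.33) were higher in the nucleus, all replication-dependent. H2BC15 had 759, 1647 and 716 units in DMSO nuclei, against 122, 241 and 154 in DMSO cytoplasm, without overlap. H4C3 was the gene lower in the nucleus (−2.23), with 1437, 5944 and 1551 units in DMSO nuclei, against 13836, 16575 and 5909 in DMSO cytoplasm. With the replicate block 9 were called, and the count was 10 without nuclear replicate 3 and 4 without nuclear replicate 2. After median-ratio scaling 24 were called, 3 higher and 21 lower, so that the direction for most genes rests on the scale. H4-16, H2BC15, H2BC18 and H4C3 were called on both scales and in every other setting.

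The change under a compound was also compared between fractions. In all reads no histone gene of 35 differed by limma under any of the 4 compounds, where at most 0.00692% of all genes did. The number with an unadjusted p under 0.05 was 0 under JQ1, 4 under JQ1-VHL, 0 under IBET151 and 4 under IBET151-VHL. In T>C reads, a comparison added after the data had been seen, 7 of 32 had a larger change in the nucleus under JQ1-VHL, against 0.729% of all genes, and 10 under IBET151-VHL, against 1.57%. Of the 21 genes that reached the minimum in both fractions, these were 6 (among them H2AJ, H2BC4, H2BC11, H2BC18 and H3C12) and 9. H3-2 is in the counts of 7 and 10 with no cytoplasmic T>C read under JQ1-VHL or in DMSO and 2 under IBET151-VHL, so its difference rests on the nucleus alone. Most of these genes had few cytoplasmic T>C reads. Without nuclear or cytoplasmic libraries of JQ1-VHL in turn the count of 7 fell to 3 (nuclear replicate 3 or cytoplasmic replicate 1), and the count of 10 under IBET151-VHL to 6 (nuclear or cytoplasmic replicate 2, or nuclear replicate 1 of DMSO). For H3C12 the nuclear minus cytoplasmic difference of the log2 change was 3.79 under JQ1-VHL and 4.45 under IBET151-VHL. None differed under JQ1 or IBET151, where 3 and 5 had an unadjusted p under 0.05 and 0% and 0.00829% of all genes had a larger nuclear change.

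Promoters of the H2B genes that led these changes share known histone promoter elements. RefSeq sequences (GRCh38.p14, 250 bases before to 50 after the gene's start) matched 35 of the 41 members. The octamer ATTTGCAT, the site that the factor OCT1 uses at H2B genes, was present on either strand in 12 of 26 replication-dependent promoters (46.2%), including 6 of 9 H2B promoters (66.7%), against 1.8% of 27305 promoters of this length. These 12 are not all separate sites. The windows of H2AC11 and H2BC11, H2AC20 and H2BC21, and H2AC6 and H2BC4 overlap, and each pair shares its octamer. The window listed for H3C4 is that of H2AC7 (chr6:26199244-26199543), away from the annotated H3C4 gene (chr6:26196840-26197250). Shared windows also enter the counts of the other motifs. CCAAT was present in 92.3% of the replication-dependent promoters, against 35.7% of all, TATAAA in 73.1%, against 12%, and GGGCGG in 30.8%, against 44.6%. The promoters of H2BC18 (chr1:149812321-149812620, minus strand), H2BC21 (chr1:149886633-149886932, minus) and H2BC4 (chr6:26123877-26124176, minus) are shown because these genes rose in nuclear T>C reads under both VHL compounds and IBET151, with the matches to these 4 motifs on either strand in capitals.
H2BC18: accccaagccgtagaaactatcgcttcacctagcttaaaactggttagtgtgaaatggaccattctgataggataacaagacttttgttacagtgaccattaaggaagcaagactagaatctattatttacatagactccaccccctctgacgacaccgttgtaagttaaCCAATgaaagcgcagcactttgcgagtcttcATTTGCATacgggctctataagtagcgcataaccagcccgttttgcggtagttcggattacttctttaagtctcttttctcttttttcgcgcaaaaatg
H2BC21: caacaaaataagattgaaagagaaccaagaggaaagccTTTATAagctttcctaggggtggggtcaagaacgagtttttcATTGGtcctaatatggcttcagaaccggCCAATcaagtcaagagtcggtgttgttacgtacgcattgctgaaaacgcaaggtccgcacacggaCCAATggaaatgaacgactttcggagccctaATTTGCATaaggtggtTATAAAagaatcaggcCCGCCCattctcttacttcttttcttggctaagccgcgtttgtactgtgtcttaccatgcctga
H2BC4: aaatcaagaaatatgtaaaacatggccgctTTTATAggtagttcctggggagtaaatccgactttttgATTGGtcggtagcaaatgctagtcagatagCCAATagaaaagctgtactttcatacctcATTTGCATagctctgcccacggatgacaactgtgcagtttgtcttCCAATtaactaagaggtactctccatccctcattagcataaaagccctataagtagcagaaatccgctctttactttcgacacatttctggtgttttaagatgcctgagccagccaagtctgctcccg

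All 3 hold the octamer and at least 1 CCAAT. The promoter of H1-2 holds CCAAT and no octamer by these letters, though H1-2 rose in the same comparisons. H4C8 rose in them too, with none of the 4 motifs in its window, and H2BC5 rose under both VHL compounds without the octamer. H2BC12 holds the octamer and 6 matches to CCAAT and passed under no compound in nuclear T>C reads. A match is a description of the sequence, not of binding, and no match says only that the letters are not in this window.

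Genes that make and process histone mRNA, and genes active in S phase, were read beside the histone genes. Of 41 tested genes for histone supply (transcription and 3′ end processing of histone mRNA, and histone chaperones), none rose in the cytoplasm over all reads, and 1 fell under JQ1, 5 under JQ1-VHL, 0 under IBET151 and 7 under IBET151-VHL. Of all genes 12.5% fell under JQ1-VHL and 15.4% under IBET151-VHL, so the 12.2% and 17.1% of this list are near the background and are no result about histone supply. Among its members, NPAT, the activator of replication-dependent histone genes, fell by 1.10 under JQ1-VHL and by 1.34 under IBET151-VHL. LSM11, a part of the U7 snRNP that cuts histone pre-mRNA after the stem-loop, fell by 2.54 and by 3.01. ZNF473, another protein of this processing, fell by 0.99 and by 1.29. In nuclear T>C reads none of 40 rose under any compound and 19 fell under JQ1-VHL and 34 under IBET151-VHL (47.5% and 85.0%), against 60.5% and 83.9% of all genes, while SLBP did not pass (−1.14 under JQ1-VHL, adjusted p = 0.126, and −1.37 under IBET151-VHL, adjusted p = 0.0535). Of 22 S-phase genes none rose in the cytoplasm over all reads, and 2 fell under JQ1-VHL (9.09%) and 1 under IBET151-VHL (4.55%), below the 12.5% and 15.4% of all genes. CDT1, which licenses replication origins, fell by 0.89 under JQ1-VHL and by 1.13 under IBET151-VHL. Whether the share of cells in S phase differed between groups was not tested.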

How the data were processed

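Polyadenylated RNA of MDA-MB-453 cells was measured in 28 libraries (10 groups, nucleus and cytoplasm). Per the labels' protocols, RNA was alkylated with iodoacetamide, ERCC standards were added per amount of RNA, and 3′ mRNA libraries were read as 100 bp single reads. The submitters' processing notes list bcl2fastq, Trimmomatic 0.39, HISAT2, HTSeq and DESeq2, and the builds GRCh37, hg19 and dm3, with no role. How T>C reads were told apart was not given in the sources used here, and no library without 4-thiouridine was analysed here.

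The deposited values are a signal per gene that the authors name as normalised to ERCC. Of 461496 values for all reads and 364812 for T>C reads, 100% were whole multiples of 1 read's worth within 0.001, which gave the reads per library. Precision follows these reads. Floors cover only the counting error of the group at 0. The mean of the other group is taken as it is, so ratios to a floor are not lower bounds.

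log2(value + 1) was tested with limma 3.58.1 (trend) in R 4.3.3 on the 14 libraries of a fraction, with Benjamini-Hochberg adjustment over all genes tested and calls at 0.05. Fold changes are on this scale, which understates those of low genes. Comparisons between fractions used all 28 libraries. The same steps were tested on simulated data. Alternatives were pseudocounts 0.5 and 5, no filter or a minimum 5 times as high, median-ratio scaling, a block by replicate number or by run of library numbers, edgeR 4.0.16 and DESeq2 1.42.0 on the recovered reads, only the groups compared, single libraries left out and, added after seeing the data, nuclear libraries without the run of library numbers with the lowest nuclear sums.

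Replicate numbers, whose meaning the labels do not give, paired the libraries of DMSO, JQ1, JQ1-VHL and IBET151-VHL in all reads: the correlation of same-numbered deviations was at least 0.159 among nuclei and 0.203 among cytoplasmic libraries, and 0.177, 0.105 and 0.343 between the fractions of DMSO. In T>C reads they paired only JQ1 and DMSO nuclei (0.322, 0.234 and 0.366). IBET151 was not paired. By run of library numbers, replicate 3 of JQ1-VHL and IBET151-VHL lies with replicate 2 of IBET151, apart from replicate 3 of DMSO and JQ1. For the VHL compounds against DMSO or JQ1, the replicate block thus pairs libraries of different runs at that number.

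Members and lists were chosen with earlier results of these data known. Any member may be named, except 1 that is in the counts and is not reported here by name or value. Values in every library are given for members called against DMSO over all reads with a mean of at least 50, at most 12 per fraction, and for the 5 with the highest DMSO cytoplasm mean. Among these 5, H2AZ2 is given as group means with SD instead. Per-library T>C values and SLBP were chosen after their values were seen.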

Additional observations from a re-analysis of the deposited data

Results flagged for a closer look

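In T>C reads, the change under a VHL compound differed between nucleus and cytoplasm for the following histone genes, by the test of that difference in a limma fit of all 28 libraries that was added after seeing the data. Values are the nuclear minus the cytoplasmic log2 change. Under IBET151-VHL the replication-dependent genes H3C12 (4.45), H2BC4 (3.53), H2BC18 (2.94), H2BC15 (2.67), H4C8 (2.58) and H2BC11 (2.52) passed, and so did the variants H2AJ (3.13) and H1-10 (2.75). Under JQ1-VHL H2BC11 (4.61), H2BC18 (3.90), H3C12 (3.79) and H2BC4 (3.72) passed, and so did H2AJ (3.69). Genes under the minimum in either fraction are left out. Apart from H1-10, with 30 to 181 reads per library in these groups, the genes listed rest on few cytoplasmic T>C reads, between 0 and 25 in any JQ1-VHL, IBET151-VHL or DMSO library. The linker gene H1-2, which rose in both fractions under both compounds, was not among them.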

How the results depend on the processing

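Counts are of histone genes called in either direction. In all reads of the nucleus, against DMSO, JQ1 gave 1 with edgeR, DESeq2, pseudocount 5 or the higher minimum, 9 after median-ratio scaling, 13 with the replicate block, 19 with the run block and 3 without the lowest run. JQ1-VHL gave 7 with edgeR, 5 with DESeq2, 12 after median-ratio scaling, 15 with either block, 10 without the lowest run, and 1 with no filter or only the groups compared. IBET151 gave 1 with DESeq2, pseudocount 0.5 or the higher minimum, 0 with no filter or only the groups compared, 10 after median-ratio scaling, 25 with the replicate block, 13 with the run block and 5 without the lowest run. IBET151-VHL gave 6 with edgeR, 15 after median-ratio scaling, 17 with either block, 10 without the lowest run and 5 with only the groups compared. JQ1-VHL against JQ1 gave 2 after median-ratio scaling or with either block, IBET151-VHL against IBET151 gave 1 after median-ratio scaling, 20 with the replicate block and 6 with the run block, and JQ1 against IBET151 gave 15 with the replicate block. Single libraries left out gave 0 to 0 (JQ1), 1 to 4 (JQ1-VHL), 0 to 2 (IBET151) and 1 to 7 (IBET151-VHL), and 0 to 0 between compounds.

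In all reads of the cytoplasm, JQ1 gave 3 with only the groups compared and 14 with the run block. JQ1-VHL gave 6 after median-ratio scaling, 4 with the run block, and 1 with no filter or only the groups compared. IBET151 gave 10 with DESeq2 or the replicate block, 3 with no filter and 1 with only the groups compared. IBET151-VHL gave 10 after median-ratio scaling, 5 with the replicate block, 6 with the run block, and 1 with no filter or only the groups compared. JQ1-VHL against JQ1 gave 4 with DESeq2 or only the groups compared, 5 with the replicate block and 8 with the run block. IBET151-VHL against IBET151 gave 2 with DESeq2, either block or only the groups compared, and 0 after median-ratio scaling or with no filter. Single libraries left out gave 3 to 14 (JQ1), 1 to 2 (JQ1-VHL), 0 to 12 (IBET151), 1 to 4 (IBET151-VHL), 0 to 1 (JQ1-VHL against JQ1) and 0 to 0 (the other pairs).

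In nuclear T>C reads, JQ1 gave 1 with edgeR, DESeq2 or without the lowest run, 11 after median-ratio scaling, 4 with pseudocount 5, 6 with the replicate block and 15 with the run block. IBET151 gave 13 after median-ratio scaling and 16 with the replicate block, and IBET151-VHL gave 29 after median-ratio scaling. JQ1-VHL against JQ1 gave 3 with edgeR, 2 with DESeq2, 10 after median-ratio scaling or with the run block, 4 with the replicate block and 0 with only the groups compared. IBET151-VHL against IBET151 gave 18 after median-ratio scaling and 10 with either block. Single libraries left out gave 1 to 2 (JQ1), 10 to 20 (JQ1-VHL), 1 to 7 (IBET151), 13 to 20 (IBET151-VHL), 0 to 4 (JQ1-VHL against JQ1) and 2 to 8 (IBET151-VHL against IBET151).

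In cytoplasmic T>C reads, JQ1 gave 2 with DESeq2 and 3 with no filter or pseudocount 0.5. IBET151 gave 3 after median-ratio scaling or with the run block and 10 with pseudocount 5. JQ1-VHL against JQ1 gave 1 after median-ratio scaling and 7 with the higher minimum or only the groups compared. IBET151-VHL against IBET151 gave 3 after median-ratio scaling. Single libraries left out gave 1 to 5 (JQ1), 8 to 12 (JQ1-VHL), 0 to 5 (IBET151), 8 to 13 (IBET151-VHL), 8 to 11 and 7 to 13 (VHL compounds against their parents).

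Between fractions, median-ratio scaling gave 2 (JQ1-VHL) and 8 (IBET151-VHL) in all reads and 3 each in T>C reads, pseudocount 0.5 gave 6 in T>C reads under IBET151-VHL, and DMSO nuclei against cytoplasm gave 24. Single libraries left out gave 0 to 0 for each compound in all reads and for JQ1 and IBET151 in T>C reads, 3 to 10 (JQ1-VHL) and 6 to 13 (IBET151-VHL) in T>C reads, and 4 to 10 for DMSO.

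Among values of named genes that were called on the deposited scale, or against DMSO only after a change of setting in a replication-dependent gene, signs changed only under median-ratio scaling, by which the median gene does not change by construction. Under JQ1-VHL in cytoplasmic T>C reads these were H2AZ2 1.10, H3-3B 1.02, H3-3A 0.56, H2AZ1 0.17, H1-10 0.83, H2AX 0.74 and H4C3 2.00. Under IBET151-VHL they were H2AZ2 0.98, MACROH2A1 0.16, H3-3B 2.02, H3-3A 1.17, H2AZ1 0.69, H2AC6 2.10, H1-10 1.32, H2AX 1.26 and H4C3 2.68. Against the parents they were H2BC12 0.12 (JQ1-VHL), and H2AZ2 0.36, H3-3B 0.68, H3-3A 0.052, H2AC6 0.050, H1-10 0.24 and H2BC12 1.51 (IBET151-VHL). In nuclear T>C reads they were H2AZ2 1.13, MACROH2A1 1.06 and H2AZ1 1.26 (IBET151-VHL) and H2AZ2 0.53, MACROH2A1 0.73, H3-3A 1.31 and H2AX 1.14 (IBET151-VHL against IBET151). Other values also changed sign under this scaling and are not listed. The cause of the other shifts was not tested. Leaving out 1 IBET151 library leaves its group with 1, assumed to vary like the others. Low T>C reads in the cytoplasm limit what could be tested there.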
